A study of Mus musculus with 8 samples.

Results

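The genes described here are 10 chemokine ligands of macrophages, taken by name from the 26848 genes of the deposited table: 7 CC chemokines (Ccl2, Ccl3, Ccl4, Ccl5, Ccl6, Ccl7 and Ccl9) and 3 CXC chemokines (Cxcl2, Cxcl10 and Cxcl16). All 10 passed the filter on low counts and were tested. They were measured in RAW264.7, an established mouse line of macrophage character that came from a tumour induced by Abelson leukaemia virus, grown on polyetheretherketone (PEEK), an implant polymer, that was either smooth (4 libraries) or nano/microstructured (4 libraries). Both groups were the same line, and the labels name no treatment other than the surface and no time in culture. The study asks how the topography of PEEK bears on the immune surroundings of an implant, and the comparison here asks whether the surface changed the transcripts of these ligands. Libraries are numbered 1 to 4 by their library names. The titles number 3 of the 4 libraries of each surface as biological replicates but name no separate cultures, so each p-value reflects the spread of these libraries, which may be technical.

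Chemokines are small secreted proteins that attract leukocytes by binding G protein-coupled receptors on their surface. CC chemokines of macrophages draw mainly monocytes, T cells and further macrophages, while CXC chemokines such as Cxcl2 draw neutrophils and the interferon-inducible Cxcl10 draws activated T cells. Many of these genes are induced through NF-kB, AP-1 and interferon regulatory factors, and their short-lived messenger RNAs are removed by decay factors that bind AU-rich elements or stem loops.

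Library totals ran from 64479829 to 73098735 count units. Summed over 10 macrophage markers, the level was 6121 to 6551 CPM (counts scaled to library size) on smooth and 6465 to 6613 CPM on structured PEEK. Csf1r, Cd68, Lyz2 and Cd14 were abundant, while Mertk was at 0.121 CPM on smooth and 0.134 CPM on structured PEEK and was not tested. Markers of other cells were also present. Their sums were 52.7 to 227 CPM on smooth and 92.0 to 344 CPM on structured PEEK for 8 hepatocyte markers, and 8.28 to 41.3 CPM and 1.47 to 7.34 CPM for 7 skeletal muscle markers. All 7 muscle markers had negative log2 fold changes, structured minus smooth (median -3.44), and edgeR called 2 lower, where 2.75% of all genes tested were called lower. No hepatocyte marker was called, and 7 had positive and 1 negative log2 fold changes. Sums over 12 neutrophil markers were 55.2 to 65.0 CPM and 67.3 to 106 CPM. Most of the smooth sum was Mmp9, and Mpo, Elane and Ltf were at 0 in every smooth library and at 0.0107, 0.0290 and 0.116 CPM on structured PEEK. Of the 6 neutrophil markers tested by edgeR, 5 were called higher and 0 lower, where 1.01% of all genes tested were called higher. The other, Mmp9, had a lower mean on structured PEEK, at 60.1 ± 4.81 CPM on smooth and 51.8 ± 2.14 CPM on structured PEEK (SD, n = 4). Its groups overlapped and it was not called. Lcn2 rose from 0.998 ± 0.557 to 15.0 ± 2.70 CPM, S100a9 from 0.0150 ± 0.0300 to 9.93 ± 5.43 CPM and S100a8 from 0.172 ± 0.176 to 3.96 ± 2.25 CPM (SD, n = 4). Mmp8 and Ngp, at 0 in every smooth library, rose to 9.43 ± 5.80 and 4.01 ± 2.58 CPM. Sums over 4 T and NK cell markers did not exceed 0.0711 CPM. In bulk RNA, fewer cells of a type and less RNA per cell cannot be told apart. The labels name RAW264.7 alone, and the source of the hepatocyte, muscle and neutrophil transcripts was not tested. These lists were known from earlier results of these data to vary between libraries, so counts of their called genes are descriptive.

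Of the 10 ligands, 5 lie close together on chromosome 11 by the positions in the deposited table. In that order these are Ccl5 (83525778 to 83530518, minus strand), Ccl9 (83572919 to 83578636, minus), Ccl6 (83587882 to 83593087, minus), Ccl3 (83647844 to 83649355, minus) and Ccl4 (83662584 to 83664683, plus). Ccl2 (82035571 to 82037453, plus) and Ccl7 (82045712 to 82047525, plus) are adjacent on the same chromosome. Cxcl16 lies apart at 70453983 to 70459984 (minus). Cxcl2 (90903871 to 90905938, plus) and Cxcl10 (92346638 to 92348882, minus) lie on chromosome 5. Cxcl10 lies within the span of Art3, which was at 0.0923 FPKM, the ends of Cxcl16 and Zmynd15 (1.2 FPKM) overlap, and Ccl6 overlaps E230016K23Rik (0.00798 FPKM). Whether the counting used strand is not given in the sources used here, so reads in these shared stretches cannot be assigned with certainty.

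The RefSeq tables for GRCm38.p6 held the 300 bases around the start, 250 before it and 50 after it, for 5 of the 10 genes. They are printed 5′ to 3′ on the gene's own strand to show what Cxcl2 and Ccl3, the interferon-inducible Cxcl10 and the neighbours Ccl9 and Ccl6 carry near their starts. Capitals mark matches on either strand to 4 motifs: the kappaB consensus of NF-kB, the interferon-stimulated response element core (GAAA, any 2 bases, GAAA), the AP-1 site TGANTCA and the TATA box TATAAA. The windows are chr5:90903649-90903948 for Cxcl2, chr5:92348840-92349139 for Cxcl10, chr11:83649329-83649628 for Ccl3, chr11:83578587-83578886 for Ccl9 and chr11:83593038-83593337 for Ccl6.
Cxcl2: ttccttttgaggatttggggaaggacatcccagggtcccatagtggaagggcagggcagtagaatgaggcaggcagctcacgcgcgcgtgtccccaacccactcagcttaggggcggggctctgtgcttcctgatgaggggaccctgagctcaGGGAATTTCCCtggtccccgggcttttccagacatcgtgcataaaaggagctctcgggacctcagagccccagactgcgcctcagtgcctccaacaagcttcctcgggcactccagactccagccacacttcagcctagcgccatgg
Cxcl10: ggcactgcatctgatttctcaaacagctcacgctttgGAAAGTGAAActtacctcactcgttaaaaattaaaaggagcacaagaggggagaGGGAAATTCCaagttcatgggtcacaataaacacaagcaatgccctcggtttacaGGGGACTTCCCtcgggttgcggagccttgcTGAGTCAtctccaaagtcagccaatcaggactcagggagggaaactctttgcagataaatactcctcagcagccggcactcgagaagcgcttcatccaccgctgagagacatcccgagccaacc
Ccl3: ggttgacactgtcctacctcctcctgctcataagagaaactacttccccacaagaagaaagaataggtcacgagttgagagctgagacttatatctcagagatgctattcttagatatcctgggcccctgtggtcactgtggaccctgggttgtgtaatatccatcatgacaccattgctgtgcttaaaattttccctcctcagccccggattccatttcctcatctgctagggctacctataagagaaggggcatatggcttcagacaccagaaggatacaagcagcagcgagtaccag
Ccl9: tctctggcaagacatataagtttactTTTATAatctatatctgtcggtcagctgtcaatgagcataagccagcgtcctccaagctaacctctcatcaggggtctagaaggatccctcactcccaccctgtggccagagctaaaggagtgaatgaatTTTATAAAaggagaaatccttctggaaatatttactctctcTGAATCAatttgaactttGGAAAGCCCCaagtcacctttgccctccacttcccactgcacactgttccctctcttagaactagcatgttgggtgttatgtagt
Ccl6: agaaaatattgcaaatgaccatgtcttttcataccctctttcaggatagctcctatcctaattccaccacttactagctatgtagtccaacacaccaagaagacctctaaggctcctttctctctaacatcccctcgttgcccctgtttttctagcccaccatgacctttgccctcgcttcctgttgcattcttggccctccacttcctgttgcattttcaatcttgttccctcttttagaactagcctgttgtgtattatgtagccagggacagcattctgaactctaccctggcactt

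The Cxcl2 window held 2 overlapping kappaB matches, 1 on each strand, from 97 to 87 bases before the start. The Cxcl10 window held a response element core from 213 to 204 bases before the start, a kappaB match from 159 to 150, 2 overlapping ones from 104 to 94, and an AP-1 site from 74 to 68. The Ccl9 window held a match to the AP-1 pattern TGANTCA 53 to 47 bases before the start, with the letters TGAATCA where Cxcl10 has TGAGTCA. It also held a kappaB match 35 to 26 bases before the start, and 3 TATA box matches further upstream, 2 of them overlapping. No motif matched in the Ccl3 or Ccl6 window, which says only that these letters are not there. Of 27018 RefSeq windows of this length, 8.18% held a kappaB match, 3.49% the response element core, 7.94% an AP-1 site and 14.2% a TATA box, and 3, 1, 2 and 1 of the 5 chemokine windows did. The Ccl6 and Ccl9 windows align over 74 columns, of which 79.7% are identical, and no other pair of the 5 aligned over more than 31 columns. A match is a description of the letters, not of a factor bound there.

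Levels differed far more between ligands than between surfaces. On the FPKM scale, which is per length, Ccl3, the macrophage inflammatory protein 1 alpha gene, was highest at 654 on average over the 8 libraries, and made up 72.1% ± 1.12 of the summed FPKM of the 10 ligands on smooth and 69.8% ± 1.13 on structured PEEK (SD, n = 4 each). Ccl4, its neighbour, followed at 159 FPKM. Ccl9 was at 60.8, Cxcl2 at 22.5, Cxcl16 at 10.5, Ccl2 at 10.1 and Ccl7 at 2.49 FPKM. Cxcl10 at 0.646, Ccl5 at 0.460 and Ccl6 at 0.444 FPKM were lowest, and Ccl3 exceeded Ccl6 by 1472 times. Between neighbours in this order the ranges over the 8 libraries were separate at 6 of 9 steps. They overlapped between Cxcl16 and Ccl2, between Cxcl10 and Ccl5, and between Ccl5 and Ccl6. Over both surfaces together those levels did not differ beyond their spread. On structured PEEK alone the Cxcl16 range, 10.92 to 12.53 FPKM, lay just above that of Ccl2, 7.97 to 10.90 FPKM. On smooth PEEK the ranges of Cxcl16 and Ccl2, 9.17 to 10.3 and 8.24 to 13.6 FPKM, overlapped.

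**Figure D1:**
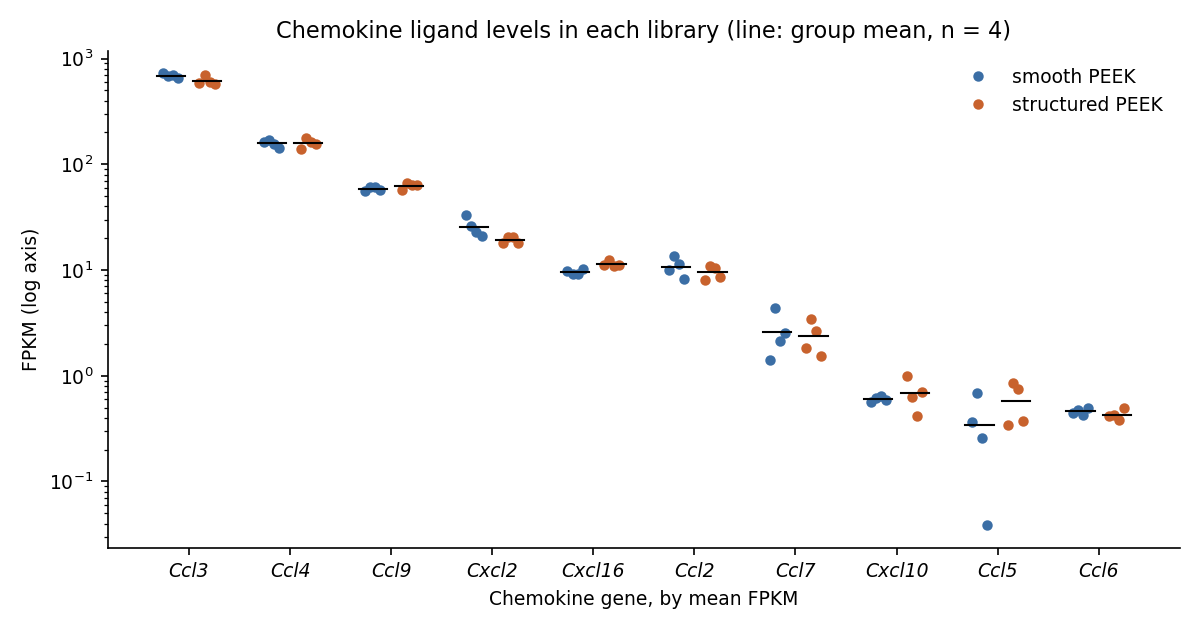
FPKM of each chemokine gene (log axis) in the 4 smooth and 4 structured libraries, with a line at each group mean and genes ordered by mean level. Levels fall from 654 FPKM for Ccl3 to 0.444 FPKM for Ccl6, and differences between surfaces are small beside this span. Ccl5 spread most, from 0.0386 to 0.862 FPKM over the 8 libraries, and the groups of Cxcl2 and Cxcl16 do not overlap.

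No ligand passed the test between surfaces. By edgeR's quasi-likelihood test with Benjamini-Hochberg (BH) adjustment over all 16006 genes tested, 0 of the 10 were called higher or lower, where 3.75% of all genes were called, 1.01% higher and 2.75% lower. At an unadjusted p under 0.05 there were 3 (Cxcl16, Cxcl2 and Ccl3), where 18.7% of all genes reached it. DESeq2 called 1 higher (Cxcl16) and 1 lower (Ccl3), and limma-voom 0. The CPM of the groups did not overlap for 2 ligands, Cxcl16 and Cxcl2, against 12.2% of all genes. Cxcl16 had structured above smooth, as 5.19% of all genes did, and Cxcl2 smooth above structured, as 7.03% did. In all, 5 ligands had positive and 5 negative log2 fold changes. The median over the 10 was -0.05, beside 0.01 over all genes tested. Fold changes below are structured minus smooth, with SE and n = 4 per group.

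**Figure D2:**
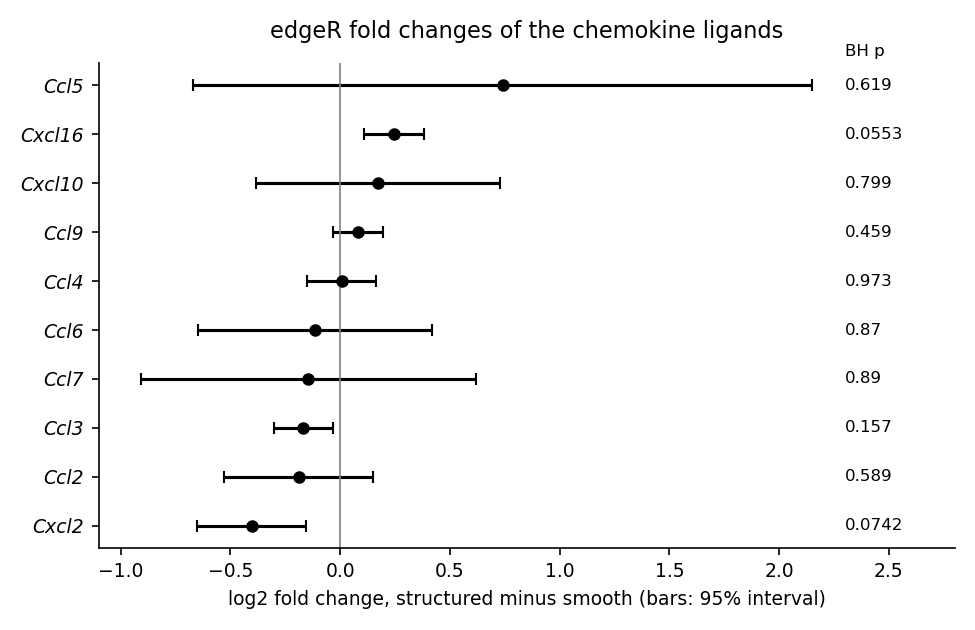
edgeR log2 fold changes of the 10 ligands, structured minus smooth, with 95% intervals and BH-adjusted p at the right. The intervals of Cxcl16, Ccl3 and Cxcl2 do not reach 0 and the other 7 do, while no adjusted p is below 0.05.

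Cxcl16 is made as a transmembrane protein that also binds oxidized lipoprotein, and its shed form attracts cells bearing CXCR6. It was at 30.9, 29.9, 29.9 and 33.6 CPM in smooth 1 to 4 and at 35.8, 40.7, 35.0 and 35.6 CPM in structured 1 to 4. Every structured library was above every smooth library, with structured 2 highest. The means were 31.1 ± 1.77 and 36.8 ± 2.65 CPM (SD), a log2 fold change of 0.24 ± 0.06 (95% interval 0.11 to 0.38; edgeR BH-adjusted p = 0.0553). Over 20 alternative settings the fold change was positive throughout (0.19 to 0.30). Its adjusted p ran from 0.00855 to 0.182 and was below 0.05 with DESeq2, with a stricter count filter and with counts divided by 4.

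Cxcl2, a ligand of CXCR2 that draws neutrophils, had the lowest fold change of the 10. It was at 71.2, 57.5, 50.6 and 46.4 CPM in smooth 1 to 4 and at 39.9, 45.7, 45.1 and 40.0 CPM in structured 1 to 4. All 4 structured libraries lay below the lowest smooth library and smooth 1 stood highest. The means were 56.4 ± 10.9 and 42.7 ± 3.14 CPM (SD), a log2 fold change of -0.40 ± 0.11 (95% interval -0.65 to -0.16; edgeR BH-adjusted p = 0.0742, and 0.0523 to 0.215 over the alternatives). Smooth 1 also had the highest muscle marker sum of all libraries (41.3 CPM) and the highest hepatocyte sum of the smooth ones (227 CPM). The fold change was -0.27 without smooth 1, and -0.27 without smooth 1, structured 3 and structured 4, the 3 libraries with most hepatocyte transcript. The part of that material in the difference was not tested.

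Cxcl10, which attracts cells bearing CXCR3, was at 1.38, 1.5, 1.60 and 1.46 CPM in smooth 1 to 4 and at 2.41, 1.55, 1.02 and 1.71 CPM in structured 1 to 4. The smooth libraries lay within the range of the structured ones, whose highest was structured 1 and lowest structured 3. The log2 fold change was 0.17 ± 0.25 (edgeR BH-adjusted p = 0.799), and -0.058 without structured 1.

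Among the CC ligands, Ccl3, a ligand of CCR1, was at 583, 563, 578 and 540 CPM in smooth 1 to 4 and at 474, 578, 494 and 471 CPM in structured 1 to 4. Of the structured libraries 3 lay below every smooth library, and structured 2 lay among the smooth ones. The means were 566 ± 19 and 504 ± 50.4 CPM (SD), a log2 fold change of -0.17 ± 0.06 (95% interval -0.30 to -0.03; edgeR BH-adjusted p = 0.157). Without structured 2 the fold change was -0.24 and the edgeR BH-adjusted p was 0.0326. Without smooth 1, structured 3 and structured 4 it was -0.09. Over the 20 alternatives the fold change ran from -0.25 to -0.09 and the adjusted p from 0.0316 to 0.627.

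Ccl4, next to Ccl3 and on the other strand, was at 111, 121, 112 and 102 CPM in smooth 1 to 4 and at 97.7, 125, 115 and 110 CPM in structured 1 to 4. The groups overlapped almost wholly. Its log2 fold change was 0.01 ± 0.07 (edgeR BH-adjusted p = 0.973), and the 95% interval ran from 0.902 to 1.12 as a fold. The sign changed in 5 of 20 alternatives. The FPKM ratio of Ccl3 to Ccl4 was 4.38 ± 0.249 on smooth and 3.88 ± 0.237 on structured PEEK (SD, n = 4), with overlapping ranges of 4.01 to 4.55 and 3.68 to 4.18.

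Ccl9 and Ccl6 are rodent chemokines that act on CCR1, lie next to each other and share sequence near their starts, as printed above. Ccl9 was at 179, 201, 199 and 189 CPM in smooth 1 to 4 and at 186, 216, 207 and 204 CPM in structured 1 to 4. Its highest 3 values were all structured, but structured 1 lay among the smooth libraries, and the log2 fold change was 0.08 ± 0.05 (95% interval -0.03 to 0.20; edgeR BH-adjusted p = 0.459). Ccl6 was at 0.725 to 0.977 CPM over all 8 libraries, or 51 to 70 count units, with a log2 fold change of -0.11 ± 0.24 (edgeR BH-adjusted p = 0.870). Ccl9 exceeded Ccl6 on the FPKM scale by 117 to 142 times in the smooth and 126 to 169 times in the structured libraries. The FPKM ratio of Ccl3 to Ccl9 was 11.1 to 12.9 on smooth and 9.15 to 10.6 on structured PEEK, which do not overlap. The other ratios taken, Ccl3 to Ccl4, Ccl9 to Ccl6 and Ccl2 to Ccl7, overlapped between surfaces. Ccl2 to Ccl7 was 3.14 to 7.19 on smooth and 3.17 to 5.61 on structured PEEK. These are descriptions with no test, and the share of all gene pairs whose ratios separate was not computed.

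Ccl2 and Ccl7 are adjacent monocyte attractants that share the receptor CCR2. Ccl2 was at 12, 16.6, 13.9 and 10.1 CPM in smooth 1 to 4 and at 9.64, 13.4, 12.7 and 10.5 CPM in structured 1 to 4. Ccl7 was at 1.19, 3.73, 1.85 and 2.22 CPM in smooth 1 to 4 and at 1.56, 2.97, 2.29 and 1.32 CPM in structured 1 to 4. For both genes library 2 was the highest of each surface and the groups overlapped. The log2 fold change was -0.19 ± 0.15 for Ccl2 (edgeR BH-adjusted p = 0.589). For Ccl7 it was -0.14 ± 0.35 (edgeR BH-adjusted p = 0.890), and 0.22 without smooth 2 and 0.02 without structured 4.

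Ccl5, the RANTES gene, was at 0.390, 0.735, 0.295 and 0.0416 CPM in smooth 1 to 4 and at 0.375, 0.915, 0.767 and 0.388 CPM in structured 1 to 4. These are 3 to 62 count units per library, and smooth 4 was below the 12 units that stand for 3 fragments. Its log2 fold change of 0.74 ± 0.64 had a 95% interval from 0.629 to 4.44 as a fold (edgeR BH-adjusted p = 0.619). That interval holds no change as well as differences of the size seen for Cxcl16 or Cxcl2.

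Within each surface, structured 2 held the highest CPM of its surface for 8 of the 10 ligands, all but Ccl6 and Cxcl10, and smooth 2 held it for 5 (Ccl2, Ccl4, Ccl5, Ccl7 and Ccl9). Neither was lowest for any. Smooth 4 and structured 1 were the lowest of their surface for 5 ligands each, among them Ccl2, Ccl4, Ccl5 and Cxcl2 in both. Structured 2 also had the highest macrophage (6613 CPM) and neutrophil (106 CPM) marker sums of the 8 libraries, and the lowest hepatocyte sum of the structured ones (92.0 CPM). The part of these in the ligand levels was not tested. The summed FPKM of the 10 ligands was 898 to 997 on smooth and 821 to 993 on structured PEEK.

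**Figure D3:**
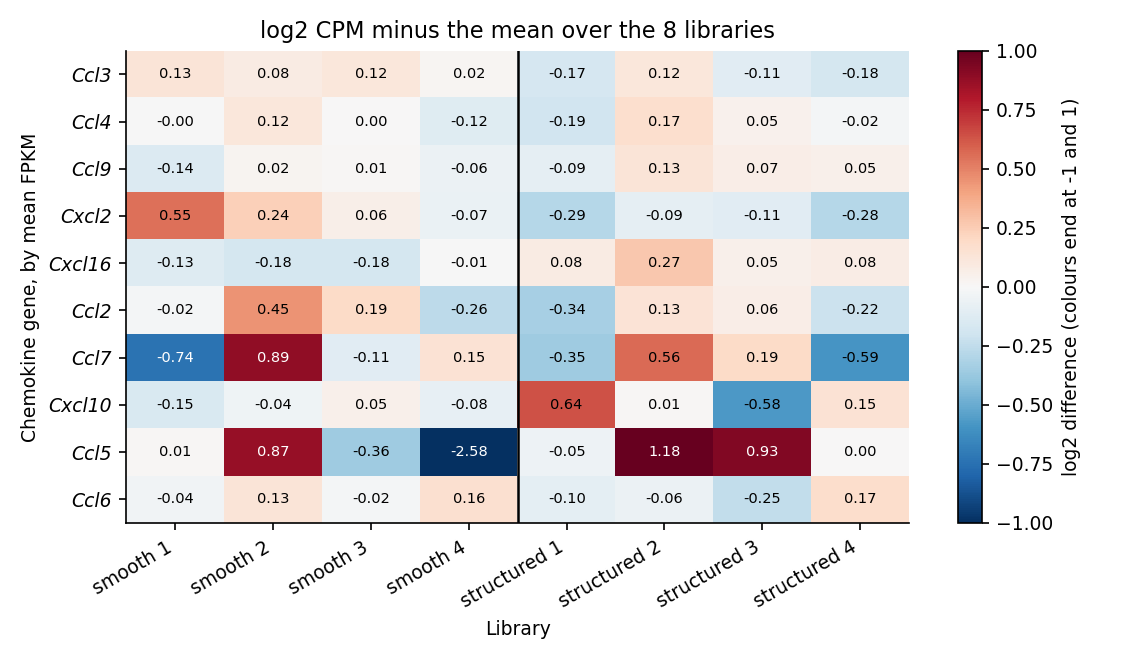
log2 CPM of each ligand minus its mean over the 8 libraries, with smooth libraries left of the line and structured ones right. Cxcl16 is below its mean in all smooth and above it in all structured libraries. Ccl2, Ccl4, Ccl5, Ccl7 and Ccl9 are positive in both libraries numbered 2.

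Of 28 other chemokine ligands listed, 17 were in the table and 3 were tested. None was called by edgeR, also at an unadjusted p under 0.05. Cxcl14 was the only other ligand with a mean of at least 1 FPKM, at 7.14 ± 1.40 CPM on smooth and 5.77 ± 0.877 CPM on structured PEEK (SD; log2 fold change -0.31 ± 0.17; edgeR BH-adjusted p = 0.363). Cxcl9, the interferon-inducible neighbour of Cxcl10, was named after its values were seen. It was at 0.0554 to 0.180 CPM on smooth PEEK and at 0.995, 0.162, 0 and 0.0620 CPM in structured 1 to 4, where structured 1, with 69 count units, also had the highest Cxcl10.

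Of 24 chemokine receptors listed, 12 were tested, and 2 fell and none rose, where 2.75% of all genes tested fell and 1.01% rose. Cxcr4, the receptor of Cxcl12, fell from 6.64 ± 0.547 to 3.74 ± 0.536 CPM (SD), a log2 fold change of -0.83 ± 0.14 (edgeR BH-adjusted p = 0.0133), and was called in all 20 alternatives. Cx3cr1, the fractalkine receptor of monocytes and macrophages and the most abundant of these receptors per length at 34.5 FPKM, fell from 179 ± 4.16 to 153 ± 8.83 CPM (log2 fold change -0.22 ± 0.04; edgeR BH-adjusted p = 0.0238). It was called in 10 of 20 alternatives, with a fold change of -0.25 to -0.20 and an adjusted p up to 0.123. The call was lost without smooth 2, smooth 4, structured 2 or structured 4, with no filter, by limma on log2 FPKM, after correction for GC content and length and without the 3 hepatocyte-rich libraries. Among the 12, 7 had positive and 5 negative log2 fold changes, with a median of 0.06.

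Some receptors of the 10 ligands were chosen by their role, after the values were seen. Cxcr3, the receptor of Cxcl10, was at 17.8 ± 1.06 and 17.0 ± 2.16 CPM (SD; edgeR BH-adjusted p = 0.793). Ccr2, the receptor of Ccl2 and Ccl7, was at 2.81 ± 0.756 and 3.36 ± 1.06 CPM, and Ccr1 at 1.01 ± 0.452 and 1.02 ± 0.0874 CPM, and neither was called. Cxcr6, the receptor of Cxcl16, was at 0 to 0.233 CPM over the 8 libraries and was not tested. Cxcr2, which binds Cxcl2 and is a defining receptor of neutrophils, was at 0 in the 4 smooth libraries and structured 1 and at 0.458, 0.540 and 1.21 CPM in structured 2 to 4. The same 3 libraries had the highest neutrophil marker sums, in which Cxcr2 is itself counted. The part of neutrophil transcript in these values was not tested.

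**Figure D4:**
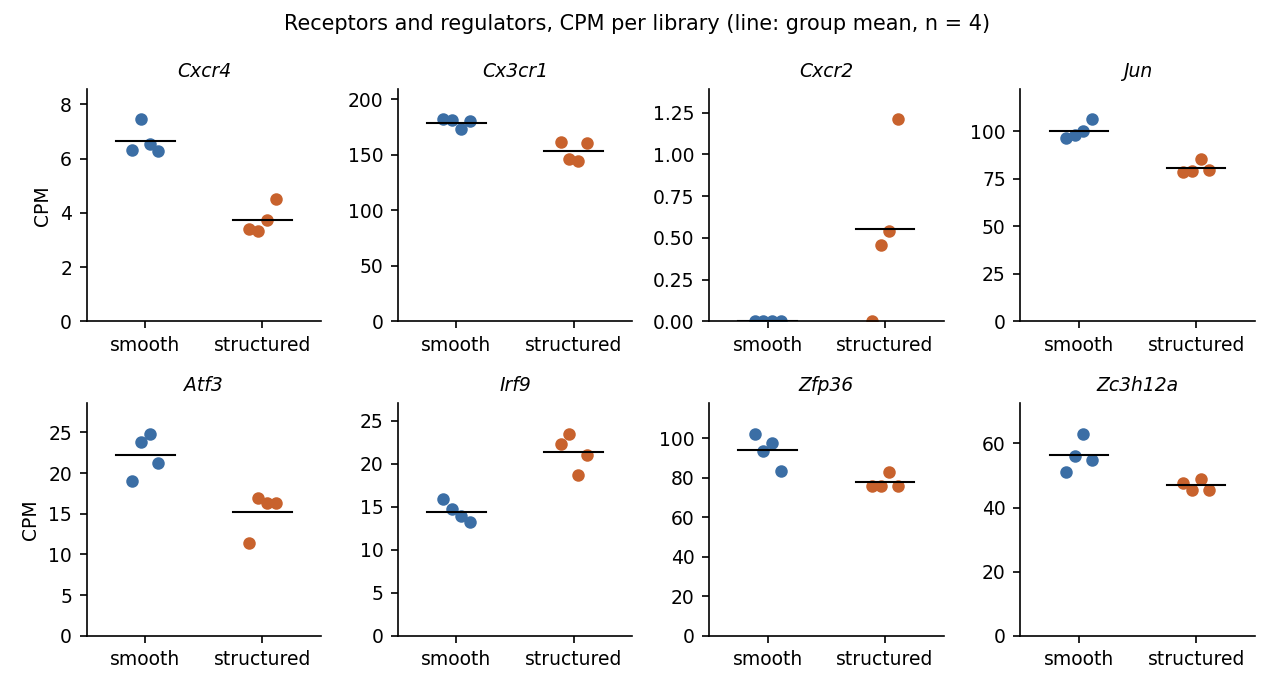
CPM per library of 3 receptors, 3 transcription factors and 2 decay factors, each axis starting at 0, with a line at the group mean. Structured libraries lie below smooth ones for Cxcr4, Cx3cr1, Jun, Atf3, Zfp36 and Zc3h12a and above them for Irf9, while Cxcr2 is above 0 in structured 2 to 4 only.

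Among 13 tested genes that cut or bind chemokines, 1 rose and 1 fell (median 0.09), where 1.01% of all genes tested rose and 2.75% fell. Anpep, an aminopeptidase that trims peptides and chemokines, fell from 103 ± 6.34 to 67.5 ± 3.73 CPM (SD; log2 fold change -0.60 ± 0.05; edgeR BH-adjusted p = 6.4e-04). Mmp8, the neutrophil collagenase, rose from 0 in every smooth library to 0.750 CPM in structured 1 and 12 to 12.8 CPM in structured 2 to 4 (edgeR BH-adjusted p = 0.00980, up to 0.234 over the alternatives, and not called by limma-voom, nor on log2 FPKM by limma with 0.5 or 1 added). Mmp8 is itself among the neutrophil markers. Adam10 and Adam17, which shed Cxcl16 from the cell, were chosen for that role after their values were seen. Adam10 was at 154 ± 4.36 and 151 ± 5.63 CPM (edgeR BH-adjusted p = 0.825). Adam17 was at 269 ± 13.7 and 298 ± 5.88 CPM (log2 fold change 0.15 ± 0.04; edgeR BH-adjusted p = 0.0778), with every structured library above every smooth one. Of 20 genes of receptor signalling only Ptk2b, a kinase activated by calcium and adhesion, was called, where 3.75% of all genes tested were. It fell by 0.31 ± 0.04 on the log2 scale (edgeR BH-adjusted p = 0.00759; called in all 20 alternatives), and the median over the 20 was -0.06.

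Of 23 transcription regulators of chemokine genes 1 rose and 2 fell, with a median of -0.06, where 1.01% of all genes tested rose and 2.75% fell. Jun, an AP-1 subunit, fell from 100.1 ± 4.27 to 80.6 ± 3.10 CPM (SD; log2 fold change -0.31 ± 0.04; edgeR BH-adjusted p = 0.00732). Irf9, the DNA-binding part of the complex on interferon response elements, rose from 14.4 ± 1.13 to 21.4 ± 2.04 CPM (0.57 ± 0.09; edgeR BH-adjusted p = 0.00992). Both were called in all 20 alternatives. Atf3, a stress-induced repressor, fell by 0.54 ± 0.13 (edgeR BH-adjusted p = 0.0393), and was called in 8 of 20 alternatives (adjusted p up to 0.111). It lost the call without smooth 2, 3 or 4 or structured 2, 3 or 4, with no filter, by limma on log2 FPKM, after correction for GC content and length and without the 3 hepatocyte-rich libraries. The NF-kB subunit genes Rela, at 57.7 ± 0.718 and 51.7 ± 3.58 CPM, and Nfkb1, at 182 ± 3.39 and 168 ± 5.37 CPM, were not called (edgeR BH-adjusted p = 0.122 and 0.118). For both, every structured library lay below every smooth one, as for 7.03% of all genes tested. Nfkbia, of the same list, had every structured library above every smooth one, as 5.19% did, and was not called (edgeR BH-adjusted p = 0.206). The groups overlapped for Nfkb2, Rel, Relb and Nfkbiz. These genes were named after their values were seen, Rela and Nfkb1 because the printed windows hold kappaB matches.

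Of 9 regulators of chemokine messenger decay 2 fell and none rose, and all 9 had negative log2 fold changes (median -0.11), 4 of them at an unadjusted p under 0.05. Over all 16006 genes tested, 2.75% fell and 1.01% rose. Of these genes 7814 had negative log2 fold changes, and 18.7% had an unadjusted p under 0.05 in either direction. Negative log2 fold changes also outnumbered positive ones among the 20 receptor signalling genes (16 and 4) and the 23 transcription regulators (16 and 7). At an edgeR unadjusted p under 0.05 there were 6 and 11 of these, in either direction. The 21 inducing cytokines and receptors had 8 negative and 13 positive. No test was made over any of these lists. Zfp36, the tristetraprolin gene that directs decay through AU-rich elements, fell from 94.3 ± 8.20 to 77.7 ± 3.37 CPM (SD; log2 fold change -0.28 ± 0.06; edgeR BH-adjusted p = 0.0329). Zc3h12a, a ribonuclease that cuts stem loops in inflammatory messengers, fell from 56.3 ± 5.06 to 46.9 ± 1.73 CPM (-0.26 ± 0.06; edgeR BH-adjusted p = 0.0459). Zfp36 lost its call without smooth 1, 2 or 3 or structured 1, 2 or 4, and Zc3h12a without any library but smooth 1. They were called in 9 and 7 of 20 alternatives, with an adjusted p up to 0.104 and 0.182. Both also lost it with no filter, by limma on log2 FPKM and without the 3 hepatocyte-rich libraries, and Zc3h12a after correction for GC content and length. Of 21 tested cytokines and receptors that induce chemokines, Ddx58, the RIG-I sensor gene, rose by 0.51 ± 0.11 (edgeR BH-adjusted p = 0.0285) and none fell (median 0.04). The shares over all genes tested, 1.01% higher and 2.75% lower, apply here too. Ddx58 was called in 9 of 20 alternatives (adjusted p up to 0.0987). It lost the call without smooth 2, 3 or 4 or structured 1, 2 or 4, with no filter, by limma on log2 FPKM and after correction for GC content and length.

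Among the ligands of at least 5 FPKM, Cxcl2 and Ccl2 varied most over the 8 libraries, with SDs of 0.28 and 0.26 in log2 CPM. Of 6409 tested genes at that level, those closest to Cxcl2 in profile were Tmem107, Pou2f2 and Pianp, with root mean square differences of 0.128, 0.132 and 0.134 in centred log2 CPM. Closest to Ccl2 were Dcxr (0.0841), Tmem98 (0.137) and Pdgfb (0.150). These are the nearest of many candidates over 8 libraries and describe the profiles alone.

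**Figure D5:**
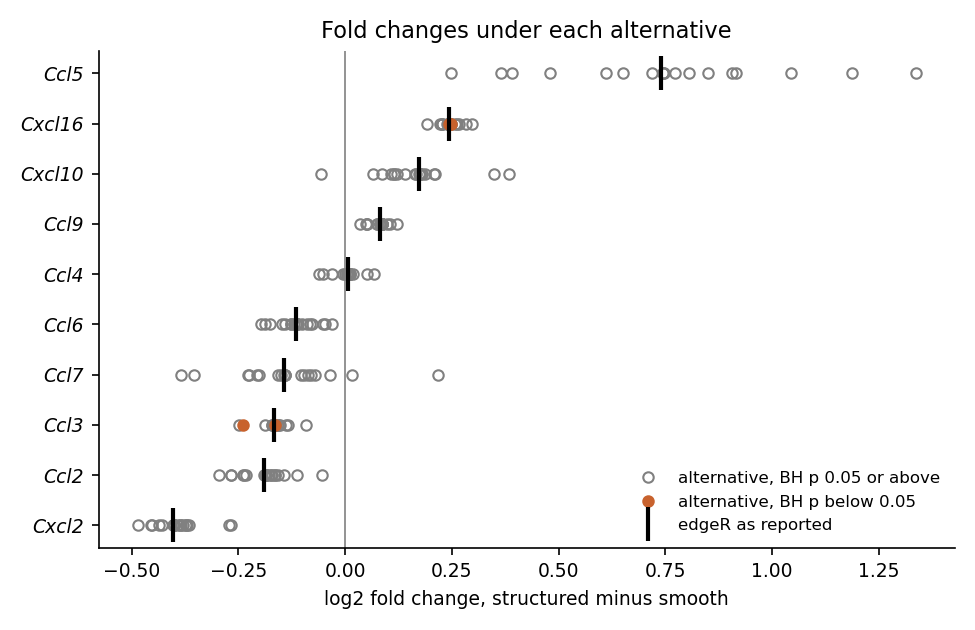
log2 fold change of each ligand as reported (bar) and under each alternative setting (circles, filled where the BH-adjusted p was below 0.05). Filled circles occur for Cxcl16, with 3, and Ccl3, with 2, and Ccl4, Ccl7 and Cxcl10 have circles on both sides of 0.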

How the data were processed

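The 4 smooth and 4 structured PEEK libraries were made by oligo(dT) selection with dUTP marking and molecular identifiers, per the labels' protocols. The submitters' processing notes name cutadapt 1.9 for reads and HISAT2 2.2.1 for alignment. Which counter, annotation, strand setting and build were used is not given in the sources used here. For every gene the authors deposited, in 1 table, an estimated (expected) count and an FPKM for each library. The deposited expected counts are whole numbers whose low values pile up at multiples of 4 (8018 values of 4, against 3344 of 3 and 2180 of 5), so a floor of 3 fragments is taken as 12 units. FPKM, per the file headers, is the authors' value per length and depth.

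Counts were tested with edgeR 4.0.16 under R 4.3.3: filterByExpr (minimum count 10, 16006 genes kept, 10842 left out), TMM, and the two-sided quasi-likelihood test with BH adjustment at 0.05. CPM are counts over the TMM-scaled library size, and 95% intervals use the SE and the fit's degrees of freedom. The 20 alternatives used DESeq2 1.42.0 and limma 3.58.1, other filters and scalings, pseudocounts of 0.5, 0.1 and 1 on log2 FPKM, division of counts by 4, a correction for GC content and transcript length (known for 99.9% of tested genes), a replicate block and each library left out. Leaving out 3 libraries was chosen after seeing the data. The edgeR step was tested on simulated data, and its pass mark was limited to well-counted genes after changed genes of low count were recovered less often. Promoter windows were aligned with Biopython 1.88, and figures drawn with matplotlib 3.10.9.

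The members and gene lists were chosen with earlier results of these data known. The naming rule took all 10 members, and from each list up to 6 called genes or the most abundant tested one, other ligands of at least 1 FPKM and the 3 nearest profiles of 2 members. Other genes were named after their values were seen. Intervals and floors cover counting error and library spread alone.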

Additional observations from a re-analysis of the deposited data

Results flagged for a closer look

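Of 63 groups of 4 libraries examined for the named genes and the other ligands above 12 count units, 9 held a library far from the other 3, by Dixon's criterion, which chance alone meets in about 1 group in 20. Cxcl16 was at 40.7 CPM in structured 2, against 35.0 to 35.8 CPM in the other structured libraries, the only such value among the 10 ligands. In structured 1, Cxcl9 was at 0.995 CPM against 0 to 0.162 CPM, Pf4 at 0.303 CPM against 0, Atf3 at 11.4 CPM against 16.4 to 16.9 CPM and Mmp8 at 0.750 CPM against 12 to 12.8 CPM. In structured 3, Jun was at 85.2 CPM against 78.6 to 79.7 CPM and Zfp36 at 82.8 CPM against 75.9 to 76.2 CPM. Cxcl1 was at 0.620 CPM in structured 4 against 0.115 to 0.171 CPM, and Cxcl12 at 1.16 CPM in smooth 1 against 0.186 to 0.277 CPM.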

How the results depend on the processing

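Of 198 fold changes of the 10 ligands under alternative settings, 185 kept their direction and their side of the threshold, 5 gained a call and 8 changed sign. Against 0 ligands called higher and 0 lower, 1 was called higher with DESeq2, with at least 50 counts in 4 samples and with counts divided by 4, and 1 lower with DESeq2. Leaving out 1 library gave 0 called higher and 0 to 1 called lower. On the log2 scale, Ccl4 went to -0.061 with the GC and length trend removed, -0.00065 without 3 libraries, -0.032 without smooth 4, -0.051 without structured 2 and -0.0057 without structured 3, Ccl7 to 0.22 without smooth 2 and 0.017 without structured 4, and Cxcl10 to -0.058 without structured 1. With 1 library left out, Ccl4 ran from -0.051 to 0.067, Ccl7 from -0.38 to 0.22 and Cxcl10 from -0.058 to 0.35. Against 161 genes called higher and 440 lower in all, there were 47 and 142 with no filter, 553 and 880 with DESeq2, 67 and 124, 89 and 153, and 65 and 122 on log2 FPKM by limma with 0.5, 0.1 and 1 added, 55 and 82 with the trend removed, and 62 and 124 without smooth 1, structured 3 and structured 4. The cause of these differences was not tested. Leaving out 1 library gave 21 to 170 called higher and 67 to 427 lower, with fewer samples in each fit; both counts fell more than 1.5 times without smooth 2, 3 or 4 or structured 1, 2 or 4. The share of calls that were lower was 73.2%, against 61.4% for DESeq2 and 59.9% with the trend removed. A replicate block gave 125 higher and 374 lower and no ligand call. Libraries of the same number did not deviate together (correlations of -0.06, 0.08, -0.0041 and -0.16 for numbers 1 to 4), and 1 of 8 correlated best with its own number. With 4 libraries a surface this cannot show whether libraries of the same number were handled together, which the labels do not say. The main test took them as unpaired. Of the 10 ligands, Ccl5, Ccl6, Ccl7 and Cxcl10 were the ones under 5 FPKM, and their intervals were wide.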
